A study of Mus musculus with 16 samples.

Results

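The 33 genes described here mark neurons and glia of the gut wall, or carry out their signalling. They were chosen by name, as general neuronal genes, genes of neural crest origin, transmitter and peptide genes, granins and glial genes. The choice was made with earlier results of these data known. The count table has 41740 gene entries, of which 22872 had at least 1 count and 15267 passed the filter on low counts. All 33 genes passed, with between 2 and 2243 counts in a library.

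The enteric nervous system is a network of ganglia between the muscle layers and in the submucosa, built by neural crest cells that migrate along the gut. Excitatory motor neurons release acetylcholine and substance P, inhibitory motor neurons release nitric oxide and vasoactive intestinal peptide, and secretomotor neurons drive fluid secretion in the mucosa. Enteric glia surround the neurons and extend processes towards the epithelium. The receptor tyrosine kinase Ret, which responds to GDNF, and the endothelin receptor Ednrb, which responds to endothelin 3, are both required for the crest cells to colonise the bowel.

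The data are total RNA sequencing of ileal whole wall from male STAM mice, a diabetic model of steatohepatitis made by injecting 200 µg of streptozotocin per head at day 2 and feeding high-fat chow from week 4. Control-STAM-nonINS (n = 4) and Control-STAM-INS (n = 6) carried the floxed InsR allele without Vilin-Cre, and ieIRKO-STAM-INS (n = 6) carried it with Vilin-Cre, a driver of recombination in intestinal epithelium. Thus all mice carried the floxed allele and all were STAM mice. Both groups named INS were given long-acting insulin by injection from 6 weeks of age, with the study running to 20 weeks, and the labels give no age for the mice behind these libraries. According to the study's methods, control mice in the experiment with insulin-treated ieIRKO-STAM mice received normal saline. Untreated below means without insulin. The study's methods count replicates as mice, so each library is taken as 1 mouse, although the labels themselves only number the libraries within a group.

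Between 13288018 and 22215382 reads were counted per library, and levels are given as CPM, in which each library's counts are divided by its TMM-scaled size. The targeted gene, Insr, stood at 62.7 ± 10.1 CPM (SD, n = 6) in Control-STAM-INS, where all libraries lay below those of Control-STAM-nonINS (105 ± 12.2 CPM, SD, n = 4). Its level of 67.2 ± 13.3 CPM (SD, n = 6) under the label ieIRKO-STAM-INS was no lower than that of the insulin-treated controls (log2 fold change 0.10, edgeR adjusted p = 0.805), although the count takes in all exons and all cells of the wall. Some libraries stood apart. Control-STAM-nonINS replicate 4 had the lowest summed level of 5 epithelial markers (7589 CPM, against 9292 to 14280 in the other libraries) and of 2 mesothelial markers (0.743 CPM). Replicate 5 of ieIRKO-STAM-INS was the highest of its group for 20 of the 33 genes, and also had the highest smooth muscle sum of that group (4379 CPM). Replicates 2 and 3 of that group were high in B cell genes. Values without them are given beside the main results that move with them.

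Markers of smooth muscle, which surrounds the myenteric ganglia, overlapped between the groups. The summed level of 8 smooth muscle genes ranged from 3561 to 4034 CPM without insulin, from 2997 to 4543 in the insulin-treated controls and from 3263 to 4379 in ieIRKO-STAM-INS. The sum of the 12 pan-neuronal genes was 100.9 ± 11.6 CPM (SD, n = 4), 100.7 ± 10.6 (SD, n = 6) and 92.9 ± 12.1 (SD, n = 6) in the same order. In bulk tissue, fewer cells of a type and less RNA per cell cannot be told apart.

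**Figure D1:**
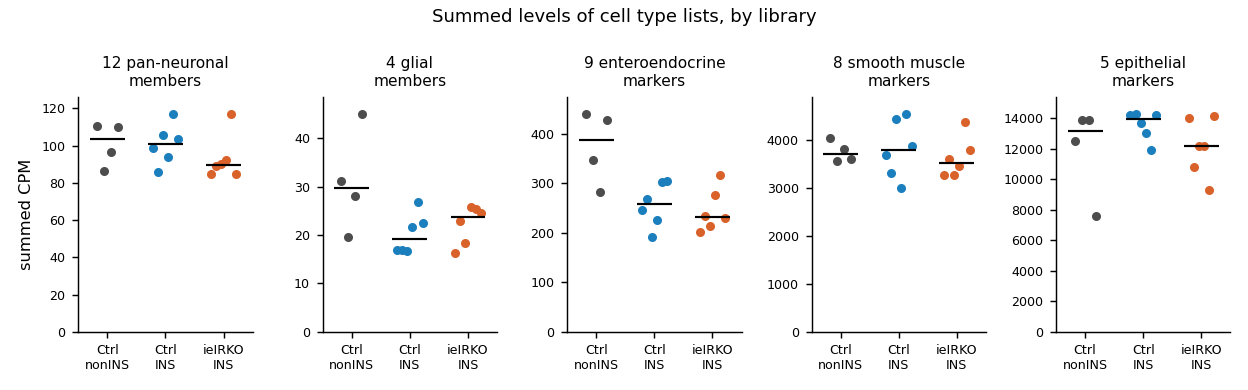
Summed CPM of the pan-neuronal and glial genes and of marker lists for enteroendocrine cells, smooth muscle and epithelium, with 1 point a library and a bar at the group median. The pan-neuronal and smooth muscle sums overlapped in all 3 groups, and the lowest epithelial sum was 7589 CPM, in Control-STAM-nonINS replicate 4.

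Per kilobase of exon, the most abundant of the 33 genes without insulin was Vip, the gene of vasoactive intestinal peptide, at 18.5 CPM per kb. Next came Scg2 (15.3 CPM per kb), a granin of dense-core vesicles, Gal (14.1), the galanin precursor, Uchl1 (12.8), the ubiquitin hydrolase known as PGP9.5, and Hand2 (10.7), a transcription factor of enteric neuron differentiation. The ranges over libraries of neighbours among these 5 overlapped. Chat, which encodes the enzyme of acetylcholine synthesis, was the lowest at 0.198 CPM per kb. With insulin, Vip had rank 5 in Control-STAM-INS, at 8.96 CPM per kb, and Gal rank 1 at 15.6. In ieIRKO-STAM-INS Vip had rank 4 at 9.78 CPM per kb, and Gal again rank 1 at 16.3.

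**Figure D2:**
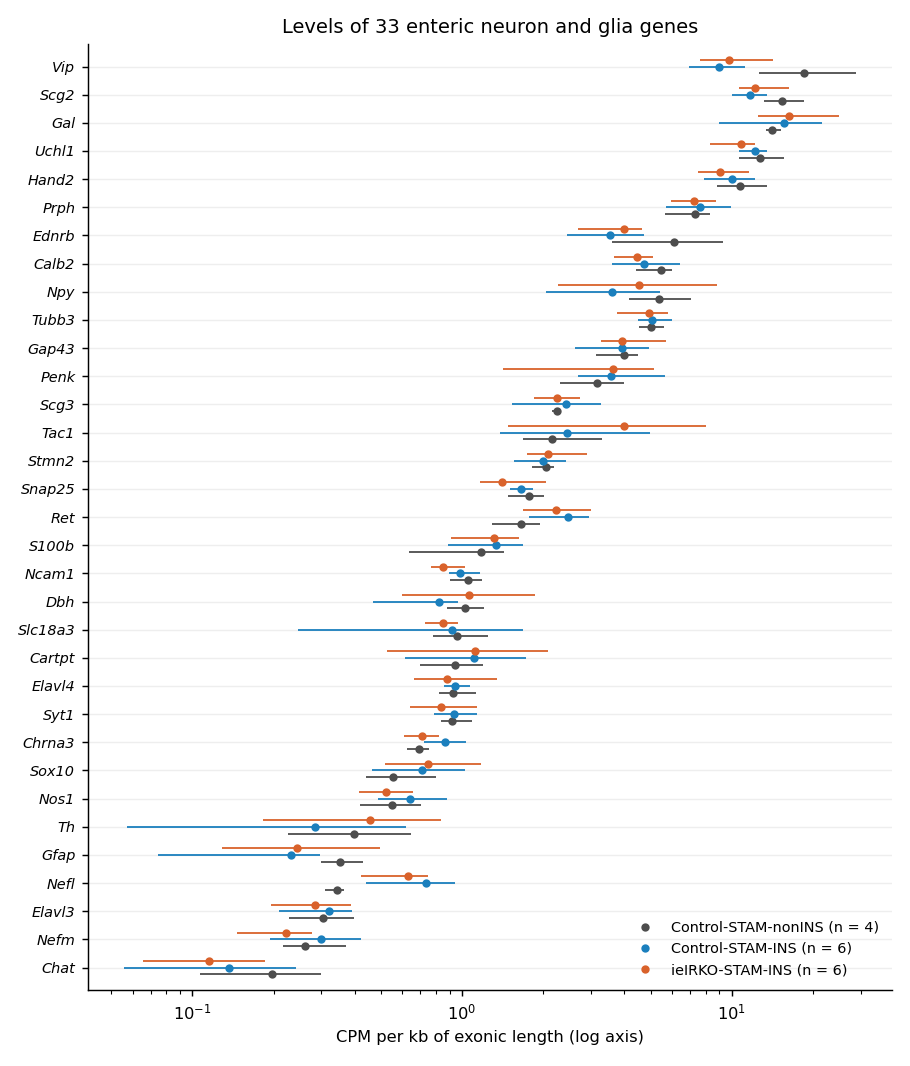
Level of each of the 33 genes in CPM per kb of exonic length on a log axis, with points at group means and lines from the lowest to the highest library. Vip was first at 18.5 CPM per kb without insulin and was at 8.96 and 9.78 in the insulin-treated groups.

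The first comparison asked what insulin treatment did in the control genotype. Vip fell and Nefl rose, each by about 1 on the log2 scale, while Ret rose and Ednrb fell by less, and most general neuronal genes had estimates near 0. These 4 of 33 genes (12.1%) passed an adjusted p of 0.05 in edgeR's quasi-likelihood test with Benjamini-Hochberg adjustment, against 10.5% of all genes tested, so the share was near the background. The 2 that rose stand beside 3.73% of all genes, and the 2 that fell beside 6.76%. Of the 33, 17 had a higher and 16 a lower estimate, with a median log2 fold change of 0.02, beside -0.0043 over all genes. At an unadjusted p under 0.05 the count was 5, beside 25.4% of all genes.

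Vip encodes a peptide of inhibitory motor and secretomotor neurons that relaxes smooth muscle and stimulates secretion. Without insulin, its 4 libraries held 42.8, 54.4, 56.8 and 98.1 CPM. With insulin the lowest, median and highest of the controls were 23.5, 28.6 and 38.2 CPM. Every insulin-treated control library thus lay below every untreated one. Vip fell by 1.05 on the log2 scale (SE 0.23, adjusted p = 0.00907 in edgeR), with p = 0.00476 by the exact permutation test, the smallest possible for 4 against 6 libraries. Without Control-STAM-nonINS replicate 4, the highest library, Vip fell by 0.75 (adjusted p = 0.0344 in edgeR). Divided by the summed pan-neuronal CPM of the same library, Vip ranged from 0.388 to 0.892 without insulin and from 0.201 to 0.441 with it.

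The Vip gene lies at chr10:5639218-5647617 on the plus strand of GRCm38, and no other annotated exon overlaps its exons. Vip is known as a gene that responds to cAMP, and Ednrb is the other of the 33 genes that fell, so both promoter windows are shown, from 250 bases before to 50 bases after the RefSeq start (GRCm38.p6). Capitals mark the core of a cAMP response element, TGACGT, and the TATA box letters TATAAA on either strand. The windows cover chr10:5638968-5639267 on the plus strand and chr14:103843652-103843951 on the minus strand.
Vip: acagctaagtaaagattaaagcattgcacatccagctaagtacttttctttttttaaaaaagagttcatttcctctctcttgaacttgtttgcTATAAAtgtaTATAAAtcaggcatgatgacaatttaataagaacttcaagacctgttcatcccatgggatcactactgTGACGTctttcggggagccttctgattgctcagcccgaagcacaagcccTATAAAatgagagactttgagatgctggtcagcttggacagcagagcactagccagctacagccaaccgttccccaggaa
Ednrb: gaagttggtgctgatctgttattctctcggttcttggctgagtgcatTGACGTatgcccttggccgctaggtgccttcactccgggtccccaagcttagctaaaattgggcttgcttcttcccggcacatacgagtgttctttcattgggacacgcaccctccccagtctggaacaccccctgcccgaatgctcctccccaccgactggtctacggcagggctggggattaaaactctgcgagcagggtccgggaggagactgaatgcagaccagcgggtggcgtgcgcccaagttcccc
In Vip the TGACGT begins 79 bases before the start and the nearest TATAAA 30 bases before it, and in Ednrb the TGACGT begins 203 bases before the start. The Ednrb gene spans chr14:103814625-103844402 in the GENCODE M21 annotation, so its whole window lies inside that annotated gene. A window was found for 23 of the 33 genes, not including Nefl or Ret. The search, made after the values were seen, covered 4 motifs on both strands. TGACGT was in 7 of the 23 (Elavl4, Chat, Vip, Cartpt, Th, Scg2 and Ednrb), against 8.37% of all 27025 genes with a window. The full element TGACGTCA, which contains the core, was in 3 (Cartpt, Th and Scg2), against 2.03%. TATAAA was in 3 (Elavl3, Prph and Vip), against 15.7%, and the E-box CAGCTG in 4 (Elavl3, Elavl4, Syt1 and Chat), against 18.3%. These matches describe letters in the windows and were not tested. Whether genes with a motif changed more often than genes without it was not tested.

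Among the 12 pan-neuronal genes only Nefl, the light chain of neurofilaments, passed the test. Nefl had 1.21, 1.18, 1.23 and 1.05 CPM without insulin. In Control-STAM-INS the lowest, median and highest were 1.49, 2.63 and 3.17 CPM, above all untreated libraries. The log2 fold change was 1.10 (SE 0.24, adjusted p = 0.0082 in edgeR, exact permutation p = 0.00952). Counts of Nefl were low, between 15 and 58 a library. Its exons at chr14:68083863-68089095 share 1108 bases with those of Nefm, the medium chain, on the opposite strand, and whether the counting used strand is not given in the sources used here. Nefm had 1.52 ± 0.42 CPM (SD, n = 4) without and 1.73 ± 0.56 (SD, n = 6) with insulin, a log2 fold change of 0.20 (adjusted p = 0.721 in edgeR).

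The other 10 pan-neuronal genes had log2 fold changes between -0.10 and 0.08. The untreated libraries held 17.3 to 25.5 CPM of Uchl1 and the insulin-treated controls 17.3 to 21.98. Elavl4, an RNA-binding protein of neurons also called HuD, had 5.00 ± 0.75 CPM (SD, n = 4) and 5.07 ± 0.46 (SD, n = 6). Tubb3, the neuronal beta-tubulin, had 9.36 ± 0.87 and 9.47 ± 1.17 CPM, and Prph, the peripheral neuron filament peripherin, 14.6 ± 2.33 and 15.2 ± 3.33. Snap25, a SNARE protein of the synaptic vesicle fusion machinery, had a log2 fold change of -0.09, with 10.04 to 13.7 CPM without and 10.25 to 12.5 with insulin. For all of these the groups overlapped and the differences were smaller than the spread between libraries.

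Ret had 12.3, 13.2, 8.72 and 10.6 CPM without insulin. With insulin the lowest, median and highest were 11.9, 16.9 and 19.95 CPM, so that 1 treated library fell within the untreated range. Ret rose by 0.58 on the log2 scale (SE 0.16, adjusted p = 0.0293 in edgeR, exact permutation p = 0.0238). Leaving out 1 library at a time, Ret passed in 4 of 10 fits, and its adjusted p in edgeR reached 0.0974 without Control-STAM-nonINS replicate 3. Hand2 did not differ beyond the spread, at 25.2 ± 4.74 (SD, n = 4) and 23.6 ± 3.66 CPM (SD, n = 6).

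Ednrb, grouped here with the glial genes because enteric glia and crest progenitors carry it, is also made by other cells of the wall. It had 26.3, 15.4, 23.3 and 39.4 CPM without insulin, against a lowest, median and highest of 10.4, 15.2 and 20.1 CPM with it. Replicate 2 of the untreated group lay inside the treated range, and replicate 4 was the highest of all. Ednrb fell by 0.79 on the log2 scale (SE 0.23, adjusted p = 0.0358 in edgeR, exact permutation p = 0.0333). Without Control-STAM-nonINS replicate 4 it fell by 0.52 (adjusted p = 0.154 in edgeR), and it passed in 3 of 10 fits that left out 1 library.

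The other 3 glial genes did not pass the test. Sox10, the transcription factor of crest and glia, had 1.69 ± 0.51 (SD, n = 4) and 2.16 ± 0.61 CPM (SD, n = 6), and the calcium-binding protein gene S100b had 1.75 ± 0.55 and 1.98 ± 0.50. Gfap, the glial intermediate filament, had 1.47, 1.80, 1.40 and 1.27 CPM without insulin and 0.314 to 1.26 with it. These groups just failed to overlap, as did those of Vip and Nefl, which makes 3 of 33 genes beside 10.6% of all genes. The log2 fold change of -0.57 had an adjusted p of 0.374 in edgeR. Gfap rested on 4 to 40 counts a library.

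**Figure D3:**
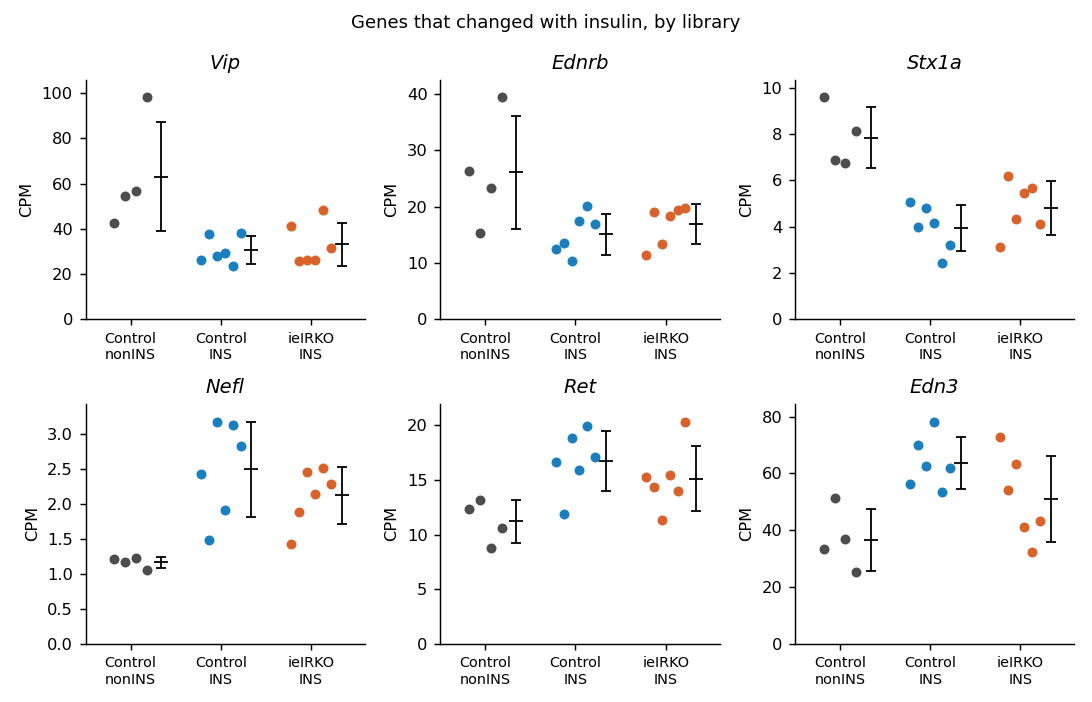
CPM of 6 genes in each library, with the group mean and SD as a bar beside the points. Vip, Stx1a, Nefl and Edn3 did not overlap between Control-STAM-nonINS and Control-STAM-INS, whereas Ednrb and Ret did.

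Apart from Vip, none of the 12 other cholinergic, transmitter, peptide and catecholamine genes passed with insulin. Chat (4 to 25 counts a library) had 0.93 ± 0.37 CPM (SD, n = 4) without and 0.64 ± 0.29 (SD, n = 6) with insulin. Slc18a3, the vesicular acetylcholine transporter, which lies inside the Chat gene on the same strand, had a log2 fold change of -0.07. Nos1, which makes nitric oxide in inhibitory neurons that often also contain Vip, had 6.76, 7.84, 5.31 and 4.68 CPM without insulin and 5.42 to 9.84 with it, a log2 fold change of 0.22 (adjusted p = 0.532 in edgeR). Npy, a peptide of secretomotor and sympathetic neurons, had the largest estimate among those that did not pass, -0.59 (adjusted p = 0.307 in edgeR). Of the granins, Scg2 had 38.6 ± 5.95 CPM (SD, n = 4) and 29.2 ± 3.85 (SD, n = 6), with a log2 fold change of -0.40 (adjusted p = 0.0571 in edgeR), and Scg3 had 0.12.

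Enteroendocrine cells of the epithelium share vesicle genes with neurons, and their markers moved in this comparison. Of 9 enteroendocrine markers, 5 passed as lower with insulin (Chga, Chgb, Neurod1, Gcg and Tph1), or 55.6% beside 6.76% of all genes. The sum over all 9 ranged from 282 to 440 CPM without insulin and from 192 to 304 with it. The part of this in the values of Vip, Scg2 and other vesicle genes was not tested.

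**Figure D4:**
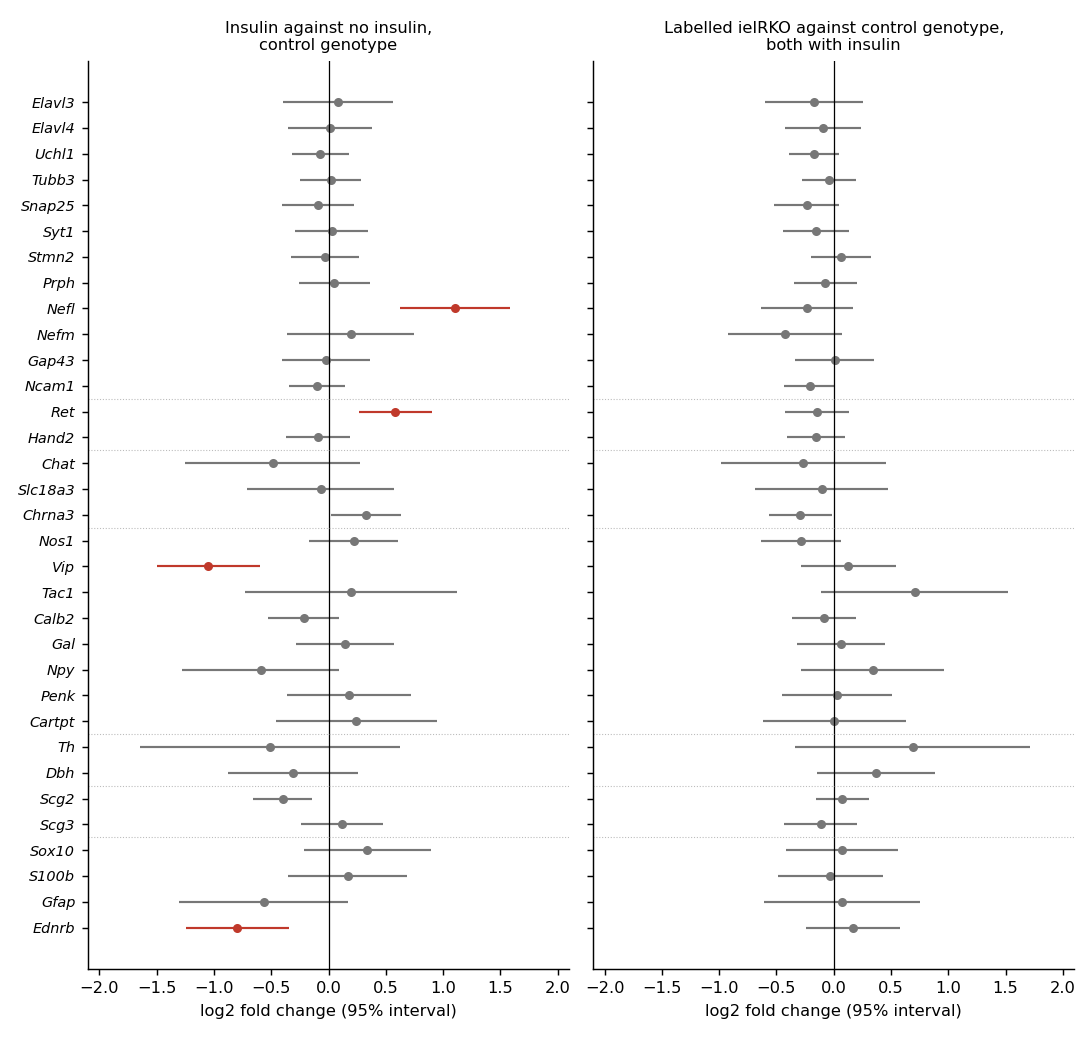
Log2 fold changes with 95% intervals of the 33 genes for insulin in the control genotype (left) and for the libraries labelled ieIRKO against Control-STAM-INS (right), grouped by role between dotted lines. The genes in red, Nefl, Ret, Vip and Ednrb, passed the adjusted p of 0.05 on the left, and none did on the right.

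A wider list of 56 genes of the enteric nervous system, listed by role and outside the 33, had 49 genes tested. With insulin, 2 of 49 (4.08%) passed, beside 10.5% of all genes. Edn3, the ligand of Ednrb, had 33.2, 51.2, 37.0 and 25.1 CPM without insulin and between 53.4 and 78.2 with it. It rose by 0.80 on the log2 scale (SE 0.22, adjusted p = 0.0274 in edgeR, exact permutation p = 0.00476), with no overlap between the groups. Without Control-STAM-nonINS replicate 4 the rise was 0.66 (adjusted p = 0.0871 in edgeR), and it passed in 5 of 10 fits that left out 1 library. Thus the ligand was higher and the receptor lower in the insulin-treated controls, and each lost its call without that library. Stx1a, a syntaxin of vesicle fusion used by neurons and endocrine cells, had 9.58, 6.90, 6.77 and 8.13 CPM without insulin and 2.44 to 5.08 with it. Stx1a fell by 0.99 (SE 0.21, adjusted p = 0.0061 in edgeR). All 7 synaptic genes of the wider list had lower estimates, with a median of -0.38, and 1 of them passed. The Ret ligand Gdnf (0.01) and the co-receptor Gfra1 (-0.13) had log2 fold changes near 0.

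The second comparison set the libraries labelled ieIRKO-STAM-INS against Control-STAM-INS, both with insulin. None of the 33 genes passed in edgeR, beside 0.223% of all genes. The count at an unadjusted p under 0.05 was also 0, beside 11.3% of all genes, and DESeq2 called 0. For none of the 33 were the groups free of overlap, which held for 0.845% of all genes. Estimates ran from -0.43 to 0.70, with a median of -0.07 beside 0.02 over all genes.

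Tac1, the precursor of substance P, had the largest estimate, 0.70 (SE 0.41, adjusted p = 0.549 in edgeR). Its lowest, median and highest levels were 4.71, 6.94 and 16.9 CPM in Control-STAM-INS and 5.04, 9.10 and 27.3 in ieIRKO-STAM-INS, where replicates 5 and 6 were high. Without replicate 5 of ieIRKO-STAM-INS the Tac1 estimate was 0.37. Th and Dbh, enzymes of catecholamine synthesis found mainly in sympathetic fibres of the gut, had estimates of 0.69 (adjusted p = 0.648 in edgeR) and 0.37 (0.627). Th had 2 to 35 counts a library. Nefm had -0.43 (adjusted p = 0.550 in edgeR) and Npy 0.34 (0.723). That replicate 5 was also the highest of its group for Dbh and Npy, and without it the estimates were 0.12 for Dbh, 0.02 for Npy and 0.46 for Th. Over all fits without 1 library the Th estimate ran from 0.45 (without replicate 1 of ieIRKO-STAM-INS) to 1.13 (without replicate 6 of Control-STAM-INS).

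The 4 genes that changed with insulin were named by the first comparison, which uses the same Control-STAM-INS libraries. The estimates of the first and second comparisons are thus not independent. For these 4 genes, the values in the libraries labelled ieIRKO-STAM-INS overlapped those of the other insulin-treated group. Vip had a lowest, median and highest of 25.8, 29.1 and 48.4 CPM, and its log2 difference from Control-STAM-INS was 0.13 (95% interval -0.29 to 0.54). For Nefl the difference was -0.23 (-0.64 to 0.17), for Ret -0.15 (-0.43 to 0.13) and for Ednrb 0.17 (-0.24 to 0.58). These intervals do not show that the groups were alike, but for each of the 4 genes they do not reach a difference of 1 in either direction. Of the 12 pan-neuronal genes, 10 had lower estimates, down to -0.43, and none passed. In the wider list 0 of 49 genes passed in edgeR, with 2 at an unadjusted p under 0.05, beside 0.223% and 11.3% of all genes.

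**Figure D5:**
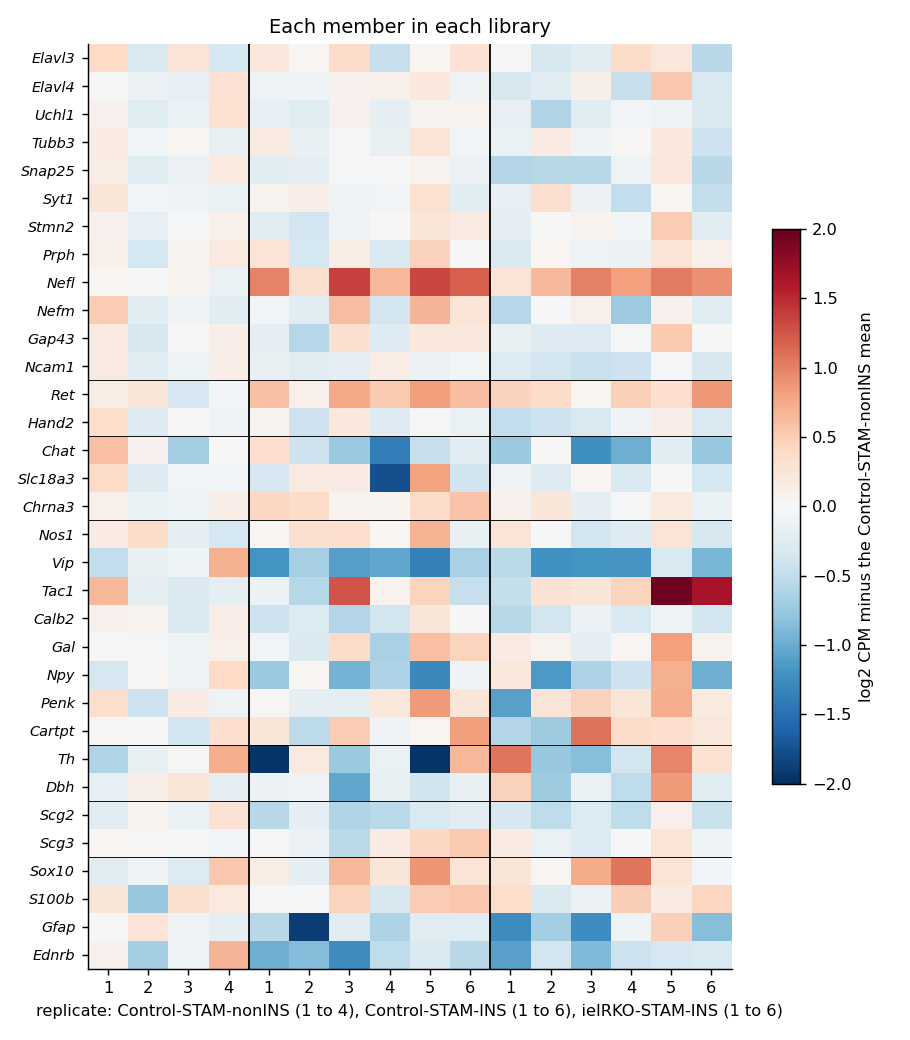
Log2 CPM of each gene in each library minus the Control-STAM-nonINS mean, with the colour scale ending at -2 and 2 and larger differences drawn at its ends. Columns are libraries by group, and rows are grouped by role. Vip is lower and Nefl higher across both insulin-treated groups, and most pan-neuronal rows stay pale.

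The third comparison took the libraries labelled ieIRKO-STAM-INS and the untreated controls, and shares the 4 untreated libraries with the first. Its groups differ in both genotype label and insulin treatment, which cannot be told apart in it. Here 2 of 33 genes (6.06%) passed in edgeR, beside 13.3% of all genes. Vip fell by 0.92 on the log2 scale (SE 0.23, adjusted p = 0.0154 in edgeR, exact permutation p = 0.0143), with 1 library, replicate 5, above the lowest untreated one. Without Control-STAM-nonINS replicate 4 Vip fell by 0.63 (adjusted p = 0.0555 in edgeR). Nefl rose by 0.87 (SE 0.25, adjusted p = 0.0263 in edgeR, exact permutation p = 0.00952), and its adjusted p was 0.0607 without that library. It was the 1 gene of the 33 with no overlap between these groups, beside 8.56% of all genes. With ieIRKO-STAM-INS replicates 2 and 3 left out, neither passed (adjusted p = 0.0719 for Vip and 0.0634 for Nefl in edgeR).

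Ednrb (-0.63, adjusted p = 0.0779) and Ret (0.44, adjusted p = 0.0819) did not pass in edgeR. Without Control-STAM-nonINS replicate 4, the Ednrb estimate was -0.36 (adjusted p = 0.288 in edgeR). Ednrb passed without Control-STAM-nonINS replicate 2 (-0.80, adjusted p = 0.0214 in edgeR), and in 2 of 9 other settings. Tac1 (0.90, adjusted p = 0.222) and Chat (-0.76, adjusted p = 0.212) did not pass in edgeR either. The Tac1 estimate was 0.58 without ieIRKO-STAM-INS replicate 5, and that of Chat -0.50 without Control-STAM-nonINS replicate 1. In the wider list 5 of 49 genes (10.2%) passed, beside 13.3% of all genes. The receptor genes Vipr1, for vasoactive intestinal peptide, and Tacr1, for substance P, fell by 0.54 (adjusted p = 0.0129 in edgeR) and 1.01 (adjusted p = 0.0371). Vipr1 had 247 CPM without insulin and 170 in the libraries labelled ieIRKO-STAM-INS, with no overlap. Tacr1 lost its call without Control-STAM-nonINS replicate 4 (adjusted p = 0.167 in edgeR). Stx1a and the synaptic vesicle gene Sv2a fell by 0.70 (adjusted p = 0.0333 in edgeR) and 0.57 (adjusted p = 0.0466). Leaving out 1 library at a time, Stx1a passed in 5 of 10 fits, with an adjusted p of up to 0.121 in edgeR (without Control-STAM-nonINS replicate 1). Sv2a passed in 2 of 10, with an adjusted p of up to 0.12 in edgeR (without Control-STAM-nonINS replicate 3). Vipr1 passed in 9 of 10 and Tacr1 in 4 of 10. With ieIRKO-STAM-INS replicates 2 and 3 left out, Stx1a passed (adjusted p = 0.048 in edgeR), while Sv2a (0.124), Vipr1 (0.0668) and Tacr1 (0.0838) did not.

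Markers of other cell types moved in this comparison too. All 9 enteroendocrine markers had lower estimates, with a median of -0.69. Of these, 3 passed as lower (Chga, Chgb and Tph1), or 33.3% beside 7.59% of all genes. The sum over all 9 was 202 to 317 CPM in ieIRKO-STAM-INS, against 282 to 440 without insulin. Of 3 fibroblast markers, Dcn passed as lower (-0.48), and of 3 B cell markers, Cd79a passed as higher (1.86). Cd79a had 119 and 84.1 CPM in ieIRKO-STAM-INS replicates 2 and 3, and 14.7 to 29.1 in the other libraries of that group. Without insulin it had 8.64 to 16.9 CPM. The part of these cell types in the values of Vip, Stx1a, Sv2a, Vipr1 and Tacr1 was not tested.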

How the data were processed

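The authors aligned reads from directional total RNA libraries to GRCm38 (mm10) with CLC Genomics Workbench and deposited raw counts per gene, without normalization. The annotation, strand setting and treatment of reads with several matches are not given in the sources used here. All 16 libraries were matched to groups by their labels. Genes were kept by filterByExpr (minimum count 10, minimum total 15). TMM scaling and a robust quasi-likelihood model over the 3 groups were run in edgeR 4.0.16 (limma 3.58.1, R 4.3.3), with Benjamini-Hochberg adjustment over 15267 genes and a threshold of 0.05. Log2 CPM used a prior count of 2, and 95% intervals used the normal quantile. Two-sided exact permutation tests used log2 CPM and all 210 or 924 arrangements, with smallest p-values of 0.00476 and 0.00216.

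Exonic lengths and overlaps came from GENCODE M21, in which 97.5% of gene names were found, and promoter windows from RefSeq. The 33 genes, the wider list and the marker lists were chosen with earlier results of these data known. Named genes were those called in any comparison, the 5 largest estimates per comparison among the 33, and 12 set genes. Other members and the wider genes Gdnf and Gfra1 were named for their role after values were seen, and 1 gene of the wider list is not reported here. Alternatives were DESeq2 1.42.0, upper-quartile scaling, other filters, the likelihood ratio test, a fit to only the groups compared, a replicate block, a smooth muscle covariate and leaving out libraries. The steps were tested on simulated data. Counts set the precision, and genes with few counts are named as such. Figures were drawn with matplotlib 3.10.9.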

Additional observations from a re-analysis of the deposited data

Results flagged for a closer look

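Within groups, 11 of 99 sets of values (33 genes in 3 groups) had 1 library far from the others by Dixon's criterion, where chance gives about 4.95. The number for each is the gap to the nearest library divided by the range of the group. In Control-STAM-nonINS, replicate 1 was high for Tac1 (0.911, 11.2 CPM against 6.19 in the next library), Syt1 (0.838) and Nefm (0.838), and replicate 2 was low for S100b (0.83, 12 counts).

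In ieIRKO-STAM-INS, replicate 5 was high for Gal (0.729, 19.7 CPM against 12.5 in the next library), Gap43 (0.71), Stmn2 (0.66), Scg2 (0.655) and Ncam1 (0.63). That library also had the highest pan-neuronal sum of its group, 116.8 CPM, and the lowest epithelial sum, and the part of tissue composition in these values was not tested. In Control-STAM-INS, Penk was high in replicate 5 (0.666, 9.23 CPM) and Gfap low in replicate 2 (0.644, 4 counts). None of these genes passed in the 3 comparisons of the report, although Scg2 passed in the first under some other settings.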

How the results depend on the processing

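No named result changed sign past a threshold. With insulin in the control genotype, the 4 calls became 3 to 5 under the other settings and 2 to 4 when 1 library was left out. Vip and Nefl passed in all 8 other settings and all 10 fits that left out a library. Without Control-STAM-nonINS replicate 1, 3 or 4, or Control-STAM-INS replicate 3 or 6, these were the 2 left. Ednrb lost its call with no filter and with only the groups compared (adjusted p = 0.0569 in edgeR for each). Scg2 passed as lower with DESeq2, with only the groups compared and with the replicate block. In ieIRKO-STAM-INS the count against the insulin-treated controls was 0 in every fit. Against Control-STAM-nonINS, the count of 2 became 1 with only the groups compared (Nefl), 1 with the replicate block (Ednrb, while Vip and Nefl lost their calls, adjusted p = 0.0535 and 0.0701 in edgeR), 0 with ieIRKO-STAM-INS replicates 2 and 3 left out, and 0 to 4 when 1 library was left out, with 0 without Control-STAM-nonINS replicate 4 and 4 without ieIRKO-STAM-INS replicate 5, where Scg2 and Snap25 passed as lower. The causes were not tested.

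Deviations of same-numbered libraries correlated between -0.094 and 0.179 (14 pairs), so the numbers were not taken to pair the samples. With the replicate block, 4 genes passed with insulin (Ednrb, Nefl, Scg2 and Vip), Ret did not (adjusted p = 0.0819 in edgeR), and 7 of the wider list passed in place of 2. Depth limits Chat, Th, Gfap and Slc18a3 most, which had libraries under 10 counts.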
